A study of Mus musculus with 12 samples.

Results

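The 42 genes described here build and fill the primary cilium, the single antenna-like organelle on which hedgehog signalling depends. They were taken as a list of named genes. The rule uses no value of these data, but the list was chosen with earlier results of these data known. It holds 11 genes of intraflagellar transport complex B (IFT-B), 3 of complex A (IFT-A), 6 BBSome subunits and 2 BBSome chaperonin-like genes. The others are 4 kinesin motors, 2 subunits of cytoplasmic dynein 2, 2 ciliary GTPases, 4 genes of hedgehog cargo and the ciliary membrane, and 8 transition-zone genes. Together the members are 42 of 21631 protein-coding genes on the autosomes and chromosome X. Open chromatin was profiled by ATAC-seq, in which a transposase cuts accessible DNA, in 12 libraries of tumour cells of mouse sonic hedgehog (SHH) medulloblastoma, a cerebellar tumour. Every group carried the genotype Ptch1+/-, with 1 disrupted copy of the receptor that restrains hedgehog signalling, and none was treated. The groups were SOX2- cells (4 libraries), SOX2+ cells (4), SOX2+/MKI67- cells (2) and SOX2+/MKI67+ cells (2). An eGFP signal gave the SOX2 call and an RFP signal the MKI67 call, so each gate is a reporter and not the protein itself, and the labels used here do not give the driver of either reporter, the strain or the age. The comparisons ask how chromatin at these genes differs between stem-like and bulk tumour cells, and between cycling and non-cycling stem-like cells.

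In the cilium, kinesin motors carry IFT-B trains towards the tip and dynein 2 with IFT-A brings them back. The BBSome moves membrane proteins along these trains, and the transition zone at the base acts as a gate. Hedgehog signalling uses this machinery: Patched leaves the cilium and Smoothened enters it when ligand binds, and GLI proteins are processed and activated there. Granule neuron progenitors, from which SHH medulloblastoma can arise, carry a primary cilium.

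Values are peaks of the authors' lists, 1 list per library, in mm10 coordinates. Each peak was given to 1 gene, the nearest, if the midpoint fell in the gene's span or no more than 100 kb away. Separately, a gene-end peak had its midpoint within 1 kb of either end of a span, and it counted for every gene that ends there. The lists held 7009 to 26206 peaks. Without read counts the depth is unknown, and list length stands in for it. A listed peak does not tell how many of the sorted cells were open there. The replicates are not said to come from separate animals, so the spread below may be technical. As a check of the sort, the 10 stem and glial progenitor markers, Sox2 among them, summed to 1 to 19 peaks per SOX2- list and 15 to 33 per SOX2+ list. The 10 markers of granule neuron progenitors summed to 9 to 41 and 1 to 21.

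Libraries of 1 set stood apart. Of 487 merged regions that were listed in 4 to 11 libraries with a median rank above the 80th percentile of their lists, 190 (39%) were listed in exactly SOX2- replicate 4, SOX2+ replicate 4 and the 4 libraries of the MKI67 sort, and 161 of these 190 lay at a gene end. The share at a gene end was not counted for the rest of the 487. The next most frequent pattern of libraries was seen for 125 of the 487. The reverse, listed in exactly the other 6 libraries, was seen for 2. The labels give no batch. The cause was not tested. Both SOX2 groups hold 1 library of this set and 3 of the other, whereas the MKI67 sort lies wholly within it.

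A gene-end peak was listed in all 12 libraries for 22 of 42 members (52.4%), against 5181 of 21631 protein-coding genes (24%). Another 17 members had one in some libraries and 3 in none. In order of replicate, members with a gene-end peak numbered 27, 34, 30 and 35 for SOX2-, and 32, 26, 33 and 35 for SOX2+. The MKI67 sort gave 34 and 35 in MKI67- and 35 and 37 in MKI67+ libraries. The shortest list of each SOX2 group, SOX2- replicate 1 and SOX2+ replicate 2, had the lowest number. Group means were 31.5 ± 3.7 (SD, n = 4) for SOX2-, 31.5 ± 3.87 (n = 4) for SOX2+, 34.5 ± 0.707 (n = 2) for SOX2+/MKI67- and 36 ± 1.41 (n = 2) for SOX2+/MKI67+, and the SOX2 groups overlapped fully. In every one of the 12 libraries the share of members (61.9% to 88.1%) was above that of all genes (27.4% to 51.7%). No test was made of this difference. Members also had longer spans than protein-coding genes at large, with a median of 40 kb against 17.3 kb.

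**Figure D1:**
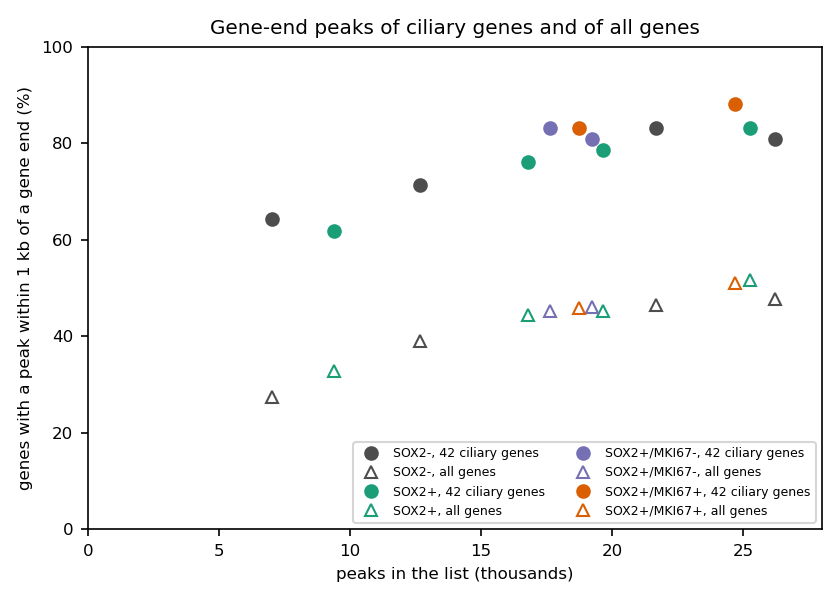
Share of genes with a peak within 1 kb of a gene end (vertical axis, %) against the number of peaks in the list (horizontal axis), 1 point per library, for the 42 ciliary genes (filled circles) and all 21631 protein-coding genes (open triangles), coloured by sorted group. The ciliary genes lie between 61.9% and 88.1%, above the 27.4% to 51.7% of all genes in the same libraries, and both shares are lowest in the short lists.

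By role, all 12 libraries had a gene-end peak at 7 of 11 IFT-B genes, 6 of 8 transition-zone genes, 3 of 6 BBSome subunits, both chaperonin-like genes, both GTPases, 1 of 3 IFT-A genes and 1 of 4 hedgehog cargo and membrane genes, but at 0 of 4 kinesin motors and 0 of 2 dynein 2 subunits. These shares are counts over few genes, were not tested against each other and depend on how a gene end is drawn. The 3 members with no gene-end peak in any list had a peak at their RefSeq start site. Kif3a, the motor subunit of the anterograde kinesin, had no peak at either end of its span, yet the region chr11:53567090-53567795 (mm10), 0.073 kb from its RefSeq start site and 1.74 kb inside the span, was listed in all 12 libraries. Ift46, an IFT-B core subunit, was alike, with chr9:44772693-44773443 at 0.059 kb from the start site in 12 libraries. Dync2h1, the dynein 2 heavy chain, had a peak at its RefSeq start site in 11 libraries, 3 of the SOX2- lists and all 8 others. By start site, 23 of the 37 members in the RefSeq promoter table (62.2%) had a peak in all 12 libraries and none lacked one throughout, against 4598 of 17274 genes (26.6%) in all 12.

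Several ciliary gene ends lie close to another gene. A neighbouring gene ended within 1 kb of 17 of the 42 members, a count that was not made over all genes. At 7 members a gene-end region was given to another gene: Ift20 to Tnfaip1, Ift74 to Plaa, Ift80 to Smc4, Gpr161 to Tiprl, Evc to Crmp1, Rpgrip1l to Fto and Cep290 to Tmtc3. Gpr161 and Evc are not among the 17. The regions at Ift74, Gpr161 and Evc lay 11.3, 13.8 and 48.4 kb from the member's RefSeq start site, so they are not the promoter at that site. Those of Ift74 and Gpr161 lay at the upstream end of the gene's span, and that of Evc at the downstream end. Whether the upstream ends of Ift74 and Gpr161 hold another promoter was not tested. Peaks of the 7 regions are counted for the member in every gene-end value above, but in peaks per gene only where the midpoint fell nearer to it. At Ift20 the shared region was listed in 12 libraries and went to the member in 2, at Cep290 in 12 and 7, at Bbs12 in 12 and 10, and at Gpr161 in 11 and 2. Peaks per gene at such members therefore move with the midpoint as well as with openness.

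Peaks were ranked within their own list by the authors' q-value, from 0 (weakest) to 100 (strongest). Ift57, an IFT-B subunit, had the highest median, at the 99.2 percentile over 12 libraries (lowest 93.1, highest 99.9). Rpgrip1l and Cep290, 2 transition-zone genes whose loss causes Joubert syndrome, followed with 99.1 and 98.8, and Arl13b, the GTPase that marks the ciliary membrane, with 98.8. In the other direction, gene-end peaks of Evc, which relays Smoothened activity with Evc2, had a median of 9.31 over 4 libraries. Evc2 stood at 8.52 in 1 library and Ift43 at 29 over 2. Kif7, the tip kinesin that holds GLI proteins, followed with 32.2 over 10 and Kif3b, the partner of Kif3a, with 36.7 over 7. Between these ends lay Tctn3 (94.9) and Tctn1 (67.1), tectonic proteins of the transition zone, Ift88 (77.2), Tulp3 (83.6) and Ift52 (50.9), each listed in 12 libraries. The promoter region of Bbs2, a BBSome subunit, was listed in all 12 libraries, and in the 9 where the peak midpoint fell within 1 kb of the gene end its median rank was 94.7. Across libraries the members' median rank was 63 to 85.9, beside 57.6 to 76.4 for gene-end peaks of all genes. Those of Evc were 2 regions, chr5:37288389-37288639 in 3 libraries at the Crmp1 side, 48.4 kb from the start site, and chr5:37336699-37336906 in 1 library at the start site. Fold over local background, a value of the authors, ran from 5.84 to 9.33 at Ift57 and from 3.12 to 4.54 at Kif7.

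Ift27, the small GTPase of IFT-B, had a strong promoter peak and Ift122, an IFT-A subunit, a strong gene-end peak, both absent from 6 lists. Ift122 has no entry in the RefSeq promoter table. Mbd4 ends 21 bp from that end of Ift122, so the region is shared, and its peak went to Ift122 in 5 of 6 libraries. The Ift27 peak (chr15:78173894-78174604) ranked at 98.6 to 99.8 wherever it was listed, and the Ift122 peak (chr6:115852996-115853894) at 84.3 to 94.8. Each was listed in exactly SOX2- replicate 4, SOX2+ replicate 4 and all 4 libraries of the MKI67 sort. They are the only 2 members whose region follows the split of libraries described above.

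The sequences before the start sites are shown for the 3 members with the smallest unadjusted p in SOX2+ against SOX2- that have a gene-end peak (Tulp3, Ift88, Kif17), for the highest ranking promoter (Ift57) and for a gene with an open start site but no gene-end peak (Kif3a). Each is the 250 bases before the RefSeq start site (GRCm38.p6), 5′ to 3′ along the gene's strand. All 5 lie wholly inside a listed region, in 12 libraries for Tulp3, Ift88, Ift57 and Kif3a and in 9 for Kif17. Capitals mark GTTGCC, 1 arm of the X-box that RFX factors bind, and the CCAAT box, on either strand. They lie at chr6:128355852-128356101 (Tulp3, minus strand), chr14:57423821-57424070 (Ift88, plus), chr4:138262001-138262250 (Kif17, plus), chr16:49699044-49699293 (Ift57, plus) and chr11:53567119-53567368 (Kif3a, plus).
Tulp3: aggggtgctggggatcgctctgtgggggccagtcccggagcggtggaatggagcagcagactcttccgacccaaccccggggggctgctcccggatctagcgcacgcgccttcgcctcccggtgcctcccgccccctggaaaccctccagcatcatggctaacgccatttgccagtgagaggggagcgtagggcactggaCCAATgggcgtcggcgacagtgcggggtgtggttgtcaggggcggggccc
Ift88: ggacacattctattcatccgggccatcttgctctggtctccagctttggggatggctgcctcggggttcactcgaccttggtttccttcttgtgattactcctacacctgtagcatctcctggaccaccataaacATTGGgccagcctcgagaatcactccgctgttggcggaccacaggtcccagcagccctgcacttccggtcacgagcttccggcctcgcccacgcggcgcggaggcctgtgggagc
Kif17: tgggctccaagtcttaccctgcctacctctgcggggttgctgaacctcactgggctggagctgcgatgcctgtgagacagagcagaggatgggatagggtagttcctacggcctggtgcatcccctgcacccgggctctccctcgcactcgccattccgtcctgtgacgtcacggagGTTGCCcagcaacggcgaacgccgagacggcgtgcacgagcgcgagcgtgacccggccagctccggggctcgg
Ift57: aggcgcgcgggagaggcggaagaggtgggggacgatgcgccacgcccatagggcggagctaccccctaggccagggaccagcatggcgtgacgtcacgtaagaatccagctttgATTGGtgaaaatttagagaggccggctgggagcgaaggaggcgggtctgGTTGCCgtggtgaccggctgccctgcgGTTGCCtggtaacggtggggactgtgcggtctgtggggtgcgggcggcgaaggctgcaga
Kif3a: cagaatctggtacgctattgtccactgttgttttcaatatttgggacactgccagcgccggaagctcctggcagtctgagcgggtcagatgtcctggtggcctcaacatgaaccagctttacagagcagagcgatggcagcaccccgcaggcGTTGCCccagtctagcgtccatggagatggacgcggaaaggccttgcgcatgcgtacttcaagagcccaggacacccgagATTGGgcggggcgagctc

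Kif17, Ift57 and Kif3a held the X-box arm in these stretches, Ift57 in 2 copies, and Tulp3, Ift88, Ift57 and Kif3a a CCAAT box. The full windows ran from 250 bases before to 50 after the start and were available for 37 members in 39 windows. GTTGCC (reverse GGCAAC) stood in 18 of the 39 (46.2%) beside 12.5% of all 32851 windows. Those 32851 windows belong to 27025 genes, more than the 21631 protein-coding genes used elsewhere, so they include other genes. The paired X-box, GTTNCC and GGNAAC with 2 bases of any kind between them, was found in 4 (10.3%) beside 0.451%. It reads alike on both strands and can overlap the single arm. These 4 sites are shown because each lies in a region listed in 11 or 12 libraries. Capitals mark the fixed letters, and the first base of the motif stood at +21, -121, -24 and +36 from the start site.
Ahi1: tctgaGTTaCCtaGGcAACagcgg
Bbs7: ccccgGTTgCCttGGaAACcggcc
Mks1: tctccGTTgCCagGGgAACgaggc
Tctn1: tgactGTTgCCcgGGcAAC

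The sites lie at chr10:20952563-20952586 (Ahi1, plus strand), chr3:36613492-36613515 (Bbs7, minus), chr11:87853186-87853209 (Mks1, plus) and chr5:122264411-122264429 (Tctn1, minus, ending where the table's window ends). CCAAT (reverse ATTGG) was in 59% of member windows and 37.4% of all, the ETS letters CCGGAAG (reverse CTTCCGG) in 20.5% and 8.86%, and the NRF1 letters (GCGCA, any base, GCGC, on either strand) in 10.3% and 4.6%. SOX letters AACAAT (reverse ATTGTT) were in 1 window (2.56%, against 10.7%), and GLI letters TGGGTGGTC (reverse GACCACCCA) in 0 (against 0.253%). Member windows were richer in G and C (median 60% against 52.7%) and in CpG (20 against 7 per window) and the part of base composition in these shares was not tested. The 7 genes for RFX factors and Foxj1, some of which drive ciliary genes, were all tested for peaks per gene. In SOX2+ against SOX2- 0 passed, with 0 at an unadjusted p under 0.05.

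Between SOX2+ and SOX2- cells, 1 ciliary gene passed the threshold for peaks per gene, and it passed in 8 of 23 alternative settings. This was Tulp3, the adaptor that brings membrane receptors such as Gpr161 into the cilium and restrains hedgehog signalling, with more peaks in the SOX2+ lists. Of the 42 members 32 could be tested with limma on log2(peaks + 1), and 1 passed an adjusted p of 0.05 (percent of all 12541 genes tested that passed: 1.86, of which 1.44 higher and 0.415 lower in SOX2+). At an unadjusted p under 0.05 there were 5 of 32 members (15.6%), the same share as of all genes tested (15.6%). The members' median log2 difference was -0.04 and that of all genes 0.00. Ift46, Ift74, Bbs4, Bbs7, Kif3a, Tctn1, Tctn2 and Tctn3 had 1 value in all 12 libraries and could not differ, and Bbs1 and Evc2 had a peak in only 1 library. Groups that did not overlap were found for 1 of the 32 members, Tulp3, and for 1.39% of all genes tested.

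**Figure D2:**
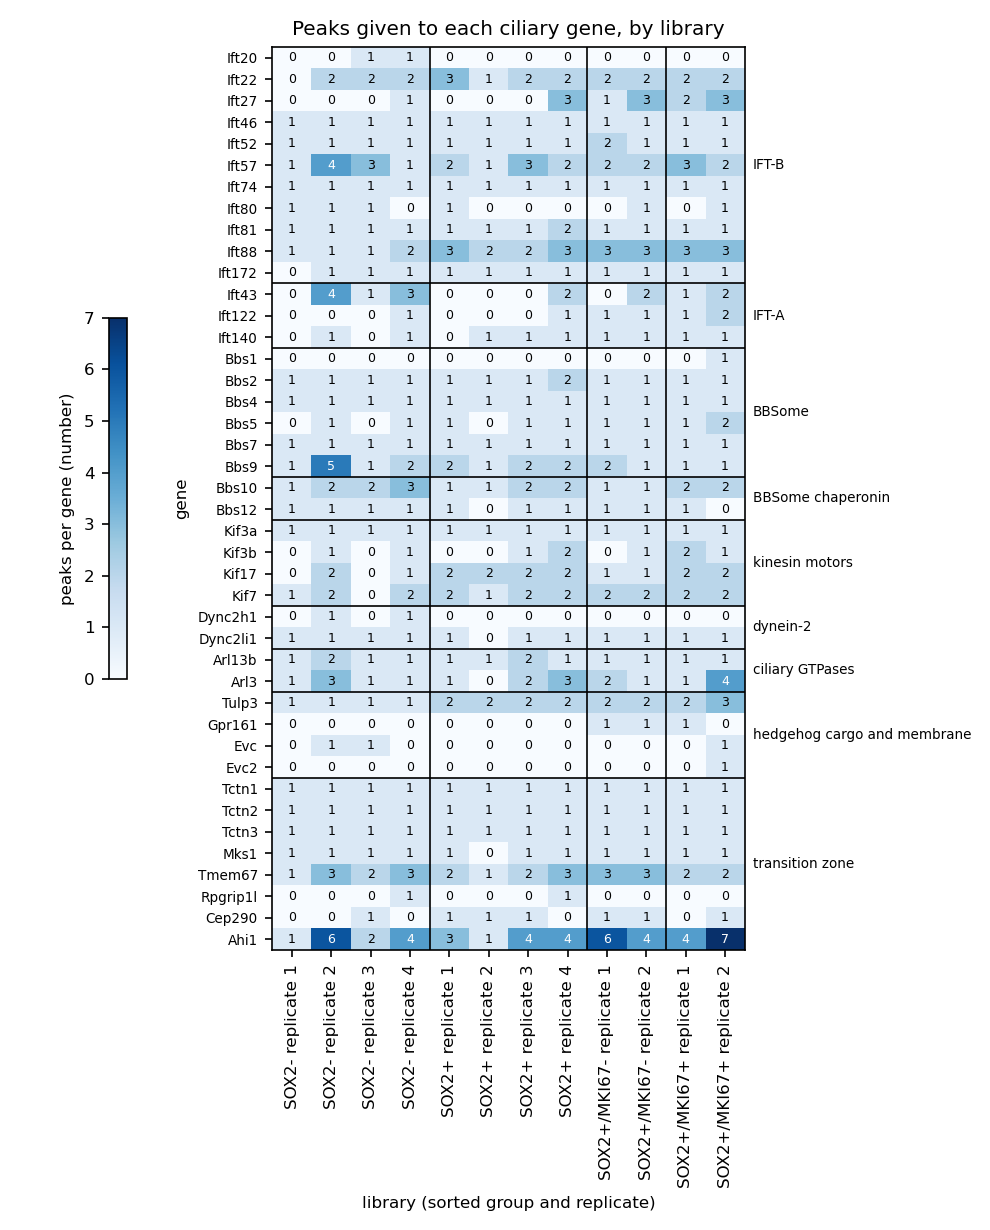
Peaks given to each of the 42 ciliary genes (rows, grouped by role) in each of the 12 libraries (columns, grouped by sort), as numbers and as shades of blue. Counts run from 0 to 7, 8 genes hold 1 peak in every library, Tulp3 holds 1 in the 4 SOX2- libraries and 2 or 3 in the 8 others, and Ahi1 reaches 7.

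Tulp3 had 1 peak in each of the 4 SOX2- lists and 2 in each of the 4 SOX2+ lists. The SOX2+/MKI67- libraries had 2 and 2, and the SOX2+/MKI67+ libraries 2 and 3. The lists shared the promoter peak, and those of all 8 SOX2+ gates added chr6:128349709-128350137, inside the gene span 5.93 kb downstream of the start site. The added peak ranked at 54.2 to 85.6 of its lists, with folds of 4.53 to 6.67. The gene table does not give exons, so whether it is intronic is not known here. The difference was 0.58 ± 0.12 (log2, SE; adjusted p = 0.0435, limma). Since the values did not vary within either group, the SE comes from the other groups and from the spread of other genes. It kept its direction in all 23 alternatives and passed in 8, with adjusted p from 0.0121 to 0.148. Leaving out any one of the SOX2-, SOX2+ or SOX2+/MKI67- libraries, 10 in number, lost the call (up to 0.118), and leaving out SOX2+/MKI67+ replicate 1 or 2 kept it (0.0165 and 0.0213). With a term for the library set it was 0.58 with an adjusted p of 0.0529. Within the library set, SOX2- replicate 4 had 1 peak and SOX2+ replicate 4 had 2, as in the other replicates.

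Ift88, the IFT-B subunit whose loss abolishes cilia, had 1, 1, 1 and 2 peaks in the SOX2- lists and 3, 2, 2 and 3 in the SOX2+ lists, and 3 in each of the 4 MKI67-sort libraries. Only SOX2- replicate 4 reached the lowest SOX2+ value. The difference was 0.62 ± 0.17 (adjusted p = 0.101), which did not pass. Its peak inside the span, chr14:57509529-57509922, 85.7 kb from the start site, appeared in SOX2- replicate 4 and all 8 other libraries. A second, chr14:57412282-57412709, 11.6 kb upstream, appeared in no SOX2- list, 2 SOX2+ lists and all 4 of the MKI67 sort. The promoter peak was listed in all 12.

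Kif17, a kinesin of ciliary trafficking, had 0, 2, 0 and 1 peaks in SOX2- and 2 in each SOX2+ library, and 1, 1, 2 and 2 in the MKI67- and MKI67+ libraries. SOX2- replicate 2 equalled the SOX2+ libraries, so the groups overlapped (0.85 ± 0.24, adjusted p = 0.113). Its promoter region chr4:138261954-138262613 appeared in 2 SOX2- and all 4 SOX2+ lists, and chr4:138282800-138283210, 20.8 kb downstream inside the span, in 1 and all 4. The 2 SOX2- libraries without a promoter peak, replicates 1 and 3, hold the shortest lists of that group.

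**Figure D3:**
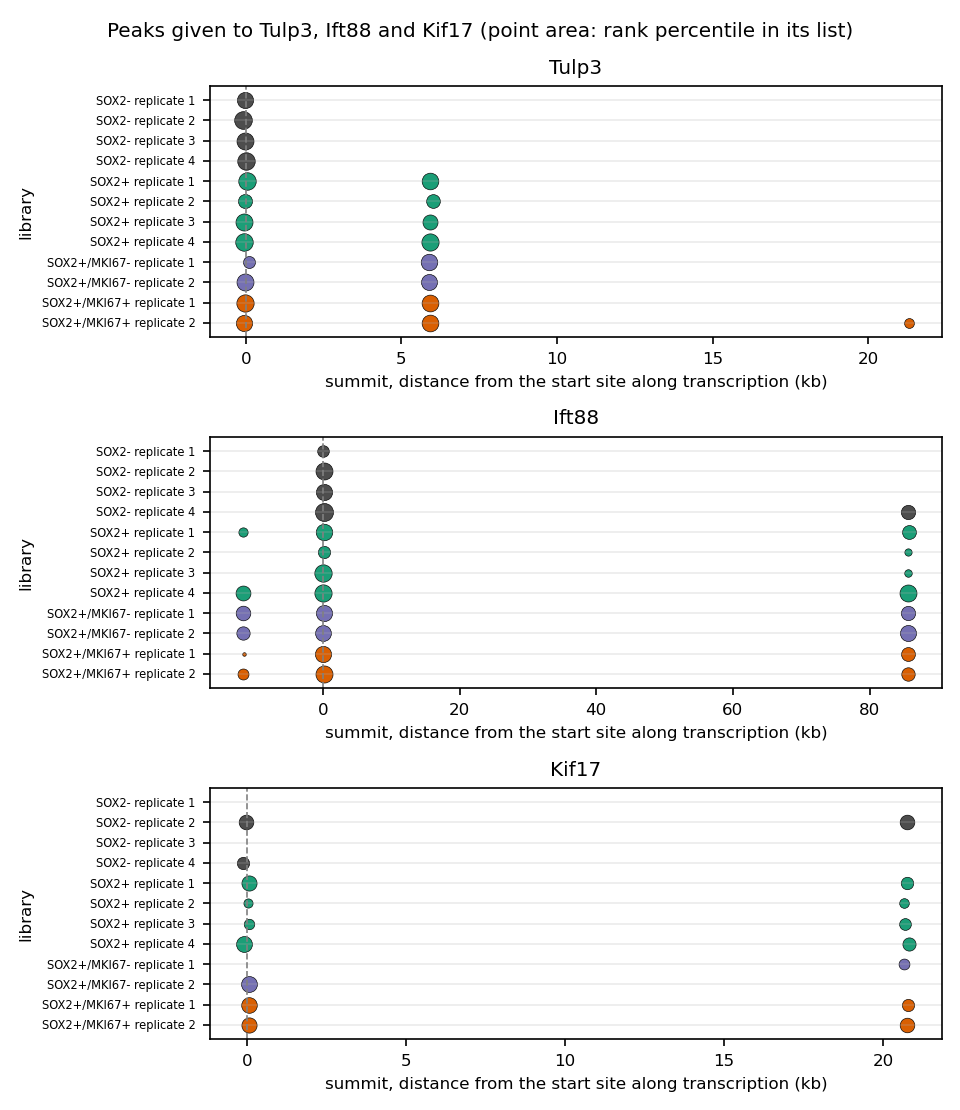
Summits of the peaks given to Tulp3, Ift88 and Kif17 (points) in each library (rows), by distance from the RefSeq start site along transcription (horizontal axis, kb), with point area for rank percentile in the list and colour for sorted group. The Tulp3 summits near 5.93 kb appear in the 8 SOX2+ gated libraries and in 0 of the 4 SOX2- libraries, whereas the start-site summits appear in all 12.

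In the other direction, Ift43, an IFT-A subunit, had 0, 4, 1 and 3 peaks in SOX2- and 0, 0, 0 and 2 in SOX2+ replicates, and 0, 2, 1 and 2 in the MKI67 sort (-1.10 ± 0.39, adjusted p = 0.204). Its 4 and 3 came from the 2 longest SOX2- lists. Dync2h1 had 0, 1, 0 and 1 peaks in SOX2- and 0 in all SOX2+ libraries (-0.56 ± 0.21, adjusted p = 0.227), each of these a distinct region listed in 1 library. Its start-site peak, listed in 11 libraries including all 4 SOX2+ lists, was not among the peaks given to it, so these zeros do not describe its promoter. Neither passed. The other 27 tested members had fitted differences of -0.54 to 0.53, and the lowest adjusted p among them was 0.406.

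By role, the fit gave no called member among 9 tested IFT-B genes (5 positive, -0.51 to 0.62), 3 IFT-A genes (-1.10 to 0.19), 3 BBSome subunits (-0.20 to 0.14), 2 chaperonin-like genes (-0.31 and -0.28), 2 dynein 2 genes (-0.56 and -0.29), 2 GTPases (-0.23 and -0.03) and 5 transition-zone genes (-0.29 to 0.53). All 3 tested kinesin genes were positive, at 0.04 to 0.85, with the lowest adjusted p of 0.113. The 3 tested hedgehog cargo and membrane genes spanned -0.54 to 0.58. Counted at gene ends, 17 members were tested and 0 passed, with 0 at an unadjusted p under 0.05 (percent of all 7717 genes tested that passed: 0.544, and 9.46% had an unadjusted p under 0.05). Tulp3 could not be tested there, since its promoter was listed in all 12 libraries.

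**Figure D4:**
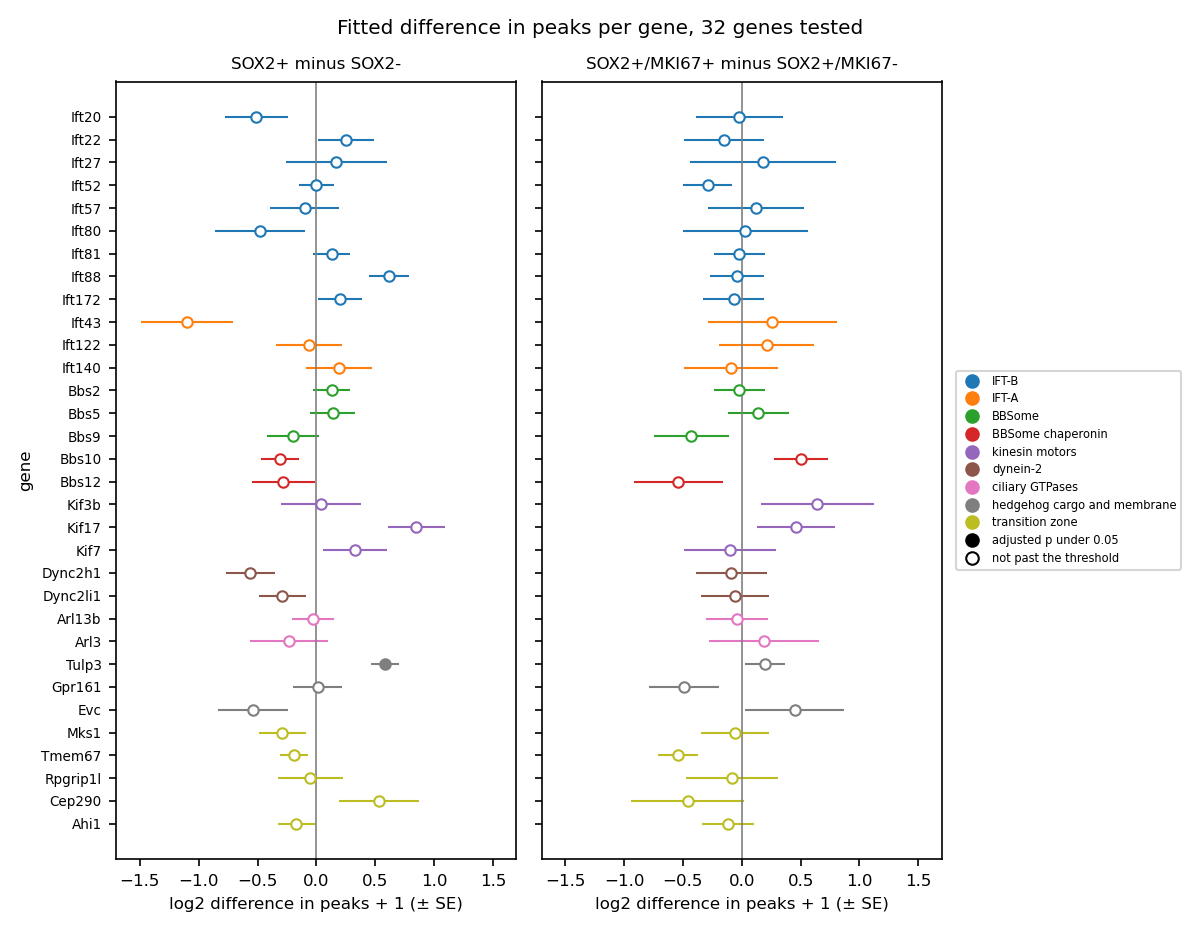
Fitted log2 difference in peaks + 1 (points, with ± SE bars) for the 32 tested ciliary genes (rows, coloured by role), for SOX2+ minus SOX2- (left) and SOX2+/MKI67+ minus SOX2+/MKI67- (right); filled points passed an adjusted p of 0.05. Tulp3 at 0.58 on the left is the only filled point, and the spread on the right runs from -0.54 to 0.64.

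Between SOX2+/MKI67+ and SOX2+/MKI67- cells, 0 of 32 members passed (percent of all 12541 genes tested that passed with limma: 0), and 1 member (3.12%) had an unadjusted p under 0.05, beside 692 genes (5.52%). That member was Tmem67, the transition-zone transmembrane protein, with 3 and 3 peaks in MKI67- and 2 and 2 in MKI67+ libraries (-0.54 ± 0.17, adjusted p = 0.693). Its value in SOX2- was 1, 3, 2 and 3 and in SOX2+ 2, 1, 2 and 3. Bbs10 had 1 and 1 in MKI67- and 2 and 2 in MKI67+ libraries (0.50 ± 0.23, adjusted p = 0.917). Gpr161, the ciliary receptor that restrains hedgehog signalling, had 1 and 1 against 1 and 0 (-0.49 ± 0.30, adjusted p = 0.985), and 2 of these 3 peaks were midpoints of the region shared with Tiprl. With 2 libraries a group, the fit borrows its spread from the other groups. At gene ends 0 of 17 members passed (percent of all 7717 genes tested: 0) and 0 had an unadjusted p under 0.05, beside 4.5% of all genes tested.

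The MKI67-sort groups were also set beside SOX2- cells, where sort and group cannot be told apart, all MKI67-sort libraries lie in 1 library set with only 1 of the SOX2- libraries, and the SOX2- libraries are shared with the comparisons above. For SOX2+/MKI67- against SOX2-, 0 of 32 members passed (percent of all genes tested: 1.27) and 5 (15.6%) had an unadjusted p under 0.05, beside 16.9% of all genes tested. For SOX2+/MKI67+ against SOX2-, 0 passed (percent of all genes tested: 0.375) and 7 (21.9%) had an unadjusted p under 0.05, beside 11.6% of all genes tested. Tulp3 differed by 0.58 (adjusted p = 0.0977) in the former and 0.78 (adjusted p = 0.0857) in the latter. Ift88 differed by 0.80 (adjusted p = 0.0909) and 0.77 (adjusted p = 0.208). Neither gene passed in either.

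Of 44242 merged regions 95 were given to members, 32 at gene ends, 36 inside spans and 27 outside. All 12 libraries listed 22 (23.2%, against 12.2% of all regions), of which 17 were at gene ends, 5 inside and 0 outside. The 27 outside regions were mostly rare, with 19 listed in 1 to 3 libraries. A peak in 3 or more SOX2+ lists and no SOX2- list was found for 3 member regions (3.16%, against 4.1% of all). These are the Tulp3 region above, chr16:49753293-49753650 inside Ift57 (3 of 4 SOX2+, 2 of 2 MKI67- and 1 of 2 MKI67+) and chr10:20915546-20916024 upstream of Ahi1 (3 of 4, 2 of 2 and 2 of 2), 36.8 kb from its start site. The reverse held for 2 (2.11%, against 1.54%): chr12:86181362-86181708 beyond Ift43 and chr10:20935272-20935578 upstream of Ahi1, each in 3 of 4 SOX2- libraries. Both were also listed in SOX2+ gates of the MKI67 sort. The Ift43 region was in 1 of 2 MKI67- and 1 of 2 MKI67+ libraries, and the Ahi1 region in 0 of 2 and 2 of 2. In the MKI67 sort 2 regions were listed in both MKI67+ and neither MKI67- library (2.11%, against 4.03%), chr12:86158663-86159391 in Ift43 and that same Ahi1 region, and 1 was listed the other way (1.05%, against 0.972%), chr4:12009118-12009440, 30.1 kb outside the span of Tmem67. No test was made of these shares. Leaving out a library also relaxes the rule. The 3 became 5 without SOX2+ replicate 2, and the reverse 2 became 6 without SOX2- replicate 1 and 5 without SOX2- replicate 3. In the MKI67 sort the 2 became 4 and 5 without MKI67- replicates 1 and 2 and 10 and 6 without MKI67+ replicates 1 and 2, and the 1 became 3 and 4 without MKI67- replicates 1 and 2 and 4 without MKI67+ replicate 2.

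Several members departed from 1 peak in a single library. Among IFT-B genes, Ift52 had 1 peak in every library but SOX2+/MKI67- replicate 1 (2), Ift81 in every library but SOX2+ replicate 4 (2), and Ift172, the large peripheral subunit, in every library but SOX2- replicate 1 (0). Dync2li1, the dynein 2 light intermediate chain, and Mks1, a transition-zone gene of Meckel syndrome, had 1 peak everywhere but in SOX2+ replicate 2, a short list, where both had 0. Ift57 varied more, with 1, 4, 3 and 1 peaks in SOX2- and 2, 1, 3 and 2 in SOX2+ lists. Bbs9 reached 5 in SOX2- replicate 2, the longest list, and stayed at 1 or 2 in every other.

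Ahi1, the transition-zone gene with the most peaks, had 1, 6, 2 and 4 in SOX2- and 3, 1, 4 and 4 in SOX2+ replicates, 6 and 4 in MKI67- and 4 and 7 in MKI67+ libraries. Its lowest values fell in the shortest lists. Evc and Evc2, a pair of adjacent genes, were nearly empty: Evc had 1 and 1 in SOX2- replicates 2 and 3 and 1 in SOX2+/MKI67+ replicate 2, and Evc2 had 1 in SOX2+/MKI67+ replicate 2.

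Other genes of the cilium, a list of 52 without the members, gave a picture close to theirs. A gene-end peak was listed in all 12 libraries for 26 (50%), and 2 of 42 tested were higher in SOX2+ with 0 lower. These were Wdr60, an intermediate chain of dynein 2, with 0, 1, 1 and 1 peaks in SOX2- and 2, 2, 3 and 3 in SOX2+ (0.97 ± 0.17, adjusted p = 0.0234), and Invs, inversin of the proximal cilium, with 1 in each SOX2- and 3, 2, 2 and 2 in SOX2+ (0.68 ± 0.15, adjusted p = 0.0465). Wdr60 passed in 12 and Invs in 6 of 23 alternatives, and Invs differed by 0.00 at equal peak numbers. Wdr60 lost its call without SOX2- replicate 2 or 4 or SOX2+ replicate 2, 3 or 4 (adjusted p up to 0.0882), and Invs without any library but the 2 of SOX2+/MKI67+ (up to 0.133). Of 18 hedgehog pathway genes 17 were tested, and 1 was lower in SOX2+: Boc, a hedgehog co-receptor, with 0, 12, 2 and 9 peaks in SOX2- and 2, 0, 3 and 3 in SOX2+ (-1.04 ± 0.20, adjusted p = 0.0289, passing in 8 of 23). Its call was lost without SOX2- replicate 2, 3 or 4, SOX2+ replicate 1 or 2, or either SOX2+/MKI67- library (up to 0.106). Gene-end peaks in all 12 libraries were at 5 of these 18. Of the 18 multiciliated and ependymal markers, which would show motile ciliated cells among the sorted cells, 13 were tested and 0 passed, with 1 at an unadjusted p under 0.05. Their peaks summed to 3 to 30 in SOX2- and 9 to 25 in SOX2+ libraries, and Ccdc153 and Dnah12 had 0 in all 12, at gene ends too. Mia also had 0 peaks given to it, but had a gene-end peak in all 12. The part of such cells in these values was not tested. With the term for the library set, Wdr60 (adjusted p = 0.0558), Invs (0.0699) and Boc (0.059) did not pass. In the same fit as the members, 6 of 10 stem and glial progenitor markers were higher in SOX2+, with Sox2 (0, 1, 1 and 1 peaks in SOX2- and 5, 2, 6 and 4 in SOX2+) at 1.49 ± 0.25 (adjusted p = 0.0198, and 0.0515 with the set term). Sox9, of the same list, lay the other way without passing, with 1, 7, 0 and 6 peaks in SOX2- and 0, 0, 1 and 2 in SOX2+ (-1.24 ± 0.43, adjusted p = 0.201). In the granule neuron progenitor list 2 of 10 markers were lower in SOX2+, with Nhlh1 at -1.46 ± 0.23 (adjusted p = 0.0141).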

How the data were processed

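ATAC-seq peak lists of 12 libraries were used as deposited. Per the labels' protocols, 35000 to 50000 sorted cells entered each reaction and reads were 50 bp single-end. Per the submitters' processing notes, Bowtie2, MACS2 and mm10 were used; the sources used here give no versions, settings, duplicate handling or transposase shift. Each deposited list held a score, a fold ratio over local background and the −log10 p-value and −log10 q-value of the authors, per peak, used only within that list. Peaks were assigned to 21631 protein-coding genes of the GRCm38.p6 gene table. limma 3.58.1 (lmFit, eBayes with trend, R 4.3.3) was fitted on log2(peaks + 1) with 4 groups and log10 list length over all 12 libraries, Benjamini-Hochberg adjusted over all genes found in 2 or more lists. Contrary to the planned filter, genes with 1 value in all 12 libraries were left out, since they carry no spread; keeping them is one of the alternatives. The fit was also run on simulated counts with planted changes larger than that of Tulp3. That run does not tell how the fit performs where values have no spread within groups. The labels used here do not say whether same-numbered libraries share a tumour, and the fit did not pair them. Named genes were those called, the 5 (SOX2) and 3 (MKI67) members of smallest p, and called genes of the comparison lists. Of the called marker genes only Sox2 and Nhlh1 were given with values, and Sox9 was named though not called. The members and lists were chosen with earlier results of these data known.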

Additional observations from a re-analysis of the deposited data

Results flagged for a closer look

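Of 26 groups of 4 libraries examined for a library far from the rest, 2 stood out. The rule flags any group in which 3 libraries share 1 value and the other differs, and it cannot flag a group without spread. How often it flags such small counts by chance is not known. SOX2- replicate 4 had 2 Ift88 peaks where the other 3 SOX2- libraries had 1 each. SOX2+ replicate 4 had 2 Ift43 peaks where the other 3 SOX2+ libraries had 0. Both belong to the set of 6 libraries described above.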

How the results depend on the processing

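Peaks were called per library with depth unknown, so an unlisted region can be a near miss, and values of 0 to 3 peaks a gene limit the precision. Of the 1 member called in SOX2+ minus SOX2-, 0 remained with only peaks ranked above the median of their list, without the list-length term, with only the 2 groups compared, with the term for the library set (added after seeing the data) and with the replicate block; leaving out single libraries gave 0 to 1. Correlations of same-numbered libraries were 0.029, -0.291, -0.022 and 0.142 in the SOX2 sort, and numbers were not taken as pairs. List length was not removed from these correlations, so they cannot tell whether the numbers are pairs. The replicate block left 59 genes called of 233. For SOX2+/MKI67- minus SOX2- the 0 members became 2 with only the 2 groups (Tulp3 and Gpr161). They became 1 with genes of constant value kept, 1 with the set term (Rpgrip1l), and 0 to 2 with single libraries left out. Peaks per gene of Rpgrip1l were 1 in SOX2- replicate 4, 1 in SOX2+ replicate 4 and 0 elsewhere. Both came from chr8:91190858-91191225, 26 kb outside the span, at rank percentiles of 2.12 and 5.25, and not from its promoter. For SOX2+/MKI67+ minus SOX2- the 0 became 1 with constant genes kept and 1 with the set term. The sign of Tmem67 between the MKI67 groups turned at equal peak numbers (0.50) and with only above-median peaks (0.11), and that of Gpr161 with only the 2 groups (0.01); the cause was not tested. Member regions of SOX2+ only were 1 when all 4 libraries were required, 5 at 2 and 1 at equal peak numbers (3 to 5 leaving out libraries); of SOX2- only 0, 6 and 0 (2 to 6); of MKI67+ only 1 when a peak had to cover 0.5 of the region and 0 at equal numbers (4 to 10); of MKI67- only 1 to 4 with libraries left out. Mean members with a gene-end peak at equal peak numbers and with above-median peaks were 24.8 and 25.5 (SOX2-), 24.5 and 25.8 (SOX2+), 25 and 27.5 (MKI67-), and 26.5 and 30.5 (MKI67+). Within 500 bp, within 2 kb and by start site they were 31.5, 36.5 and 31.5 (MKI67-) and 33.5, 38.5 and 33.5 (MKI67+). Genes called over all alternatives ran from 59 to 257 in SOX2+ minus SOX2-, 0 to 626 and 0 to 262 for the MKI67- and MKI67+ groups against SOX2-, 0 to 56 between the MKI67 groups, and 26 to 104 and 0 to 291 at gene ends. The cause was not tested.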
